A study of Homo sapiens with 30 samples.

Results

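Hybrid tumoroids with PD-1/CD2 droplets were compared with hybrid tumoroids with plain droplets. Both are 3D cultures of PANC-1, an established human pancreatic ductal adenocarcinoma line, that self-assembled together with droplet-supported lipid bilayers (DSLBs), synthetic cells made of an oil droplet wrapped in a lipid bilayer. PD-1/CD2 DSLBs presented recombinant ectodomains of PD-1 and CD2, and plain DSLBs carried no protein. Sample labels chose the members, 3 libraries per group, which are 6 of the 30 libraries of the series. The other 24 libraries were 3 each of hybrids with PD-1 DSLBs, of hybrids with PD-1 beside CD27, CD40L, CTLA4, ICOS, LAG3 or TIGIT, and of tumoroids without DSLBs (DSLB-free). The study asked how tumour cells respond when the ectodomain of another lymphocyte surface protein stands beside PD-1 on a synthetic cell. All groups share the cell line, the low-serum medium and the culture format, and no group holds living immune cells. PD-1/CD2 and plain DSLB hybrids differ in both proteins at once, so PD-1, CD2 and the presence of a protein coat cannot be told apart in this comparison. The same 6 libraries enter every value below unless another group is named.

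PD-1 is an inhibitory receptor of activated T cells, and its ligand PD-L1 (gene CD274) on tumour cells can also signal back into the cell that carries it, which is called reverse signaling. CD2 is an adhesion and co-stimulatory receptor of T and natural killer cells, and its main human ligand is CD58 (LFA-3), a membrane protein of many epithelial cells. Both receptors are normally carried by lymphocytes, and here only their extracellular parts were offered to the tumour cells.

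The 3 PD-1/CD2 libraries held 30.03, 41.52 and 59.72 M summed expected counts and the 3 plain DSLB libraries 25.77, 36.83 and 36.99 M, within 21.9 to 60.5 M over all 30 libraries. Mitochondrial genes took 4.02 to 5.69% of counts in PD-1/CD2 libraries and 4.73 to 5.19% in plain DSLB libraries. The 10 most abundant genes took 8.12 to 8.96% in PD-1/CD2 libraries and 7.15 to 7.34% in plain DSLB libraries, 2 ranges that did not overlap. PD-1/CD2 libraries differed more among themselves, with a chi-square per gene of 27.96 to 36.56 between pairs, against 3.316 to 5.931 between pairs of plain DSLB libraries. 4 libraries of the series stood apart, with a distance to the others of their group over 4 times the distance between those others, and these were PD-1/LAG3 replicate 3, DSLB-free replicate 2, PD-1/CTLA4 replicate 2 and PD-1 replicate 1, none of them a PD-1/CD2 or plain DSLB library. Markers of the line summed to 10300 to 11000 TPM in PD-1/CD2 hybrids and 8260 to 8640 TPM in plain DSLB hybrids, with 7 and 8 of 8 at 1 TPM or more. T cell markers summed to 0.9 to 1.21 TPM in PD-1/CD2 hybrids and 0.99 to 1.27 TPM in plain DSLB hybrids, with CD3D, CD3E and TRAC at 0 in all 6 libraries. Endothelial markers stayed at or under 0.34 TPM in both groups. Myeloid markers summed to 25.5 to 43.2 TPM in PD-1/CD2 hybrids and 31.8 to 32.6 TPM in plain DSLB hybrids, nearly all of it CD68, with FCGR3A at 0 in all 6 libraries. Fibroblast markers summed to 133 to 202 TPM in PD-1/CD2 hybrids and 305 to 345 TPM in plain DSLB hybrids, nearly all of it COL1A1, which PANC-1 cells also express, and the other fibroblast markers lay at or under 5.41 TPM. In bulk RNA, fewer cells of a state and less RNA per cell cannot be told apart.

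Neither PD-1 ligand gene had enough reads to be tested, while CD58, the ligand gene of CD2, was measured in all 6 libraries. CD274, which encodes PD-L1, had 1 to 8 expected counts per library in PD-1/CD2 hybrids and 3 or 4 per library in plain DSLB hybrids, too few to test. PDCD1LG2, the gene of the other PD-1 ligand, had 0 or 1 counts in PD-1/CD2 libraries and 0 in all plain DSLB libraries, and CD2 itself had 0 counts in all 3 PD-1/CD2 libraries and 0 or 1 in plain DSLB libraries. CD58 was measured at 9.65, 10.2 and 9.53 CPM (counts scaled to a common library size) in PD-1/CD2 hybrids, against 7.79, 8.5 and 8.05 CPM in plain DSLB hybrids, and the groups did not overlap. Its log2 fold change was 0.27 ± 0.10 (SE; edgeR quasi-likelihood test, adjusted p = 0.047). That call was lost without any 1 of the 6 libraries and with gene length removed (adjusted p = 0.383). CMTM6, which stabilises PD-L1 at the cell surface, had a log2 fold change of 0.18 ± 0.08 and did not pass (adjusted p = 0.0858). CMTM4, a relative of CMTM6, fell (log2 fold change −0.25, adjusted p = 0.00999), a call that was lost with gene length removed or without PD-1/CD2 replicate 2.

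PD-1/CD2 hybrids differed from plain DSLB hybrids in 5450 of 18424 genes tested (29.6%), of which 2604 rose (14.1%) and 2846 fell (15.4%). The changes were mostly small. The median size of a called change was 0.42 on the log2 scale, and 276 genes rose and 304 genes fell at least 2-fold. The median log2 fold change of all genes was 0.02. An unadjusted p under 0.05 was reached by 7381 of the 18424 genes. Counts of list members below stand beside these 7381 and beside the 14.1% of all genes that rose and the 15.4% that fell. A count near those shares is no result about the list. The same model called 2 genes (0.0109%), SCG2 and WLS, between plain DSLB hybrids and DSLB-free tumoroids, with 1123 at an unadjusted p under 0.05. The plot of all genes shows log2 fold change against abundance. In the text, a single value in parentheses after a gene symbol is its log2 fold change, and medians are of log2 fold changes.

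**Figure D1:**
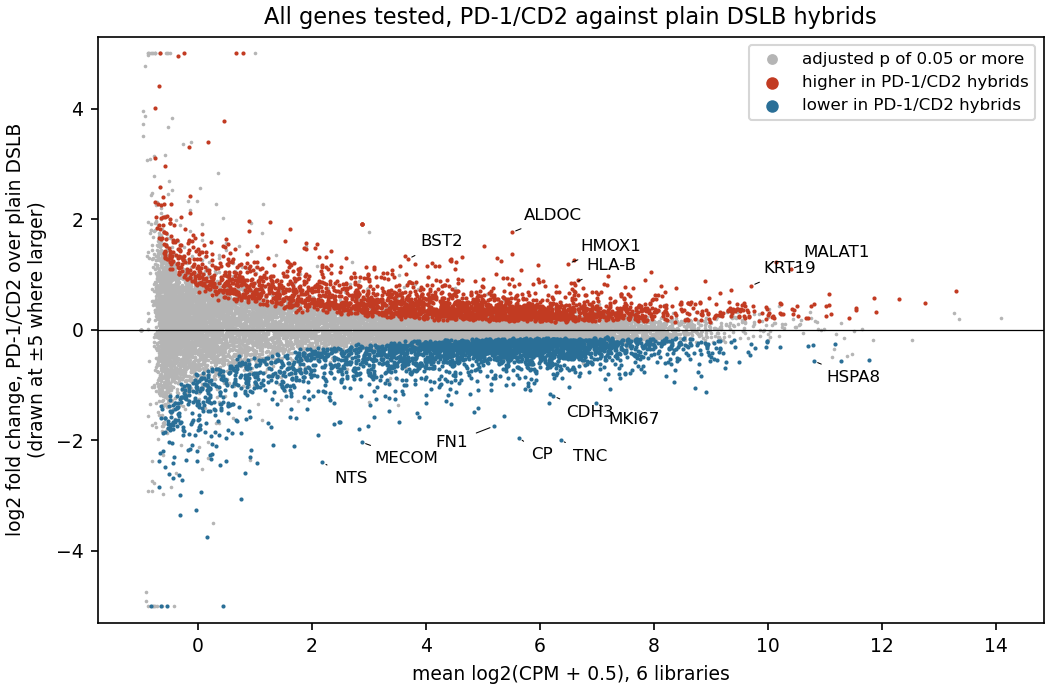
Log2 fold change of PD-1/CD2 over plain DSLB hybrids (vertical axis, drawn at the edge where beyond 5) against mean log2(CPM + 0.5) over the 6 libraries (horizontal axis) for the 18424 genes tested, coloured by whether a gene rose, fell or did not pass at an adjusted p under 0.05. The 2604 genes that rose and the 2846 that fell lie across the whole range of abundance, most of them within 1 log2 unit of 0.

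Genes of the hypoxia response and of glycolysis rose. The hypoxia-inducible factors are transcription factors that oxygen-dependent hydroxylases hold down, and their targets include glucose transporters, glycolytic enzymes and angiogenic factors. Of 33 such genes tested, 26 rose and 4 fell, with a median log2 fold change of 0.62. ALDOC, an aldolase isozyme of glycolysis (chr17:28573115-28576948, GRCh38), was measured at 82.2, 89.1 and 76.9 CPM in PD-1/CD2 hybrids, against 21.8, 26.5 and 25.1 CPM in plain DSLB hybrids. The groups lay far apart, and ALDOC was 3.39-fold higher in PD-1/CD2 hybrids (log2 1.76 ± 0.12 SE, adjusted p = 2.36e-11). PFKFB4, a regulator of glycolytic flux (chr3:48517684-48562015), was measured at 52.3, 58.1 and 51.6 CPM in PD-1/CD2 hybrids and at 19.6, 14.2 and 23.3 CPM in plain DSLB hybrids. It was 2.85-fold higher (adjusted p = 5.21e-10). PDK1 restrains pyruvate entry into mitochondria and was measured at 63.3, 58.8 and 59.0 CPM in PD-1/CD2 hybrids, against 23.1, 26.8 and 27.0 CPM in plain DSLB hybrids (2.36-fold, adjusted p = 1.73e-10). The neuronal enolase gene ENO2 was measured at 84.7, 91.6 and 103 CPM in PD-1/CD2 hybrids, against 42.3, 36.9 and 45.4 CPM in plain DSLB hybrids (2.25-fold, adjusted p = 4.79e-10). In these 4 genes, which have the list's smallest p values, every PD-1/CD2 library lay above every plain DSLB library. That separation is given as a description only.

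Other enzymes of glycolysis rose as well. Hexokinase HK2 rose by 1.10 on the log2 scale, GPI by 0.67, ALDOA by 0.65, GAPDH by 0.57, LDHA by 0.47 and the glucose transporter SLC2A1 by 0.69. BNIP3, a mitophagy receptor, was measured at 329, 393 and 350 CPM in PD-1/CD2 hybrids, against 156, 176 and 184 CPM in plain DSLB hybrids (log2 1.05, adjusted p = 4.7e-09). VEGFA, the angiogenic growth factor, was measured at 240, 245 and 223 CPM in PD-1/CD2 hybrids and at 132, 127 and 156 CPM in plain DSLB hybrids (1.71-fold, adjusted p = 3.79e-05). In both genes the groups were clear of each other, which is given as a description only. The 4 genes that fell were HIF1A (log2 −0.61) and EPAS1 (−0.40), which encode the oxygen-labile subunits themselves, EGLN3 (−0.44), a prolyl hydroxylase, and SLC2A3 (−0.81), another glucose transporter. HIF1A stood at 105, 87.0 and 82.5 CPM in PD-1/CD2 hybrids, against 144, 139 and 136 CPM in plain DSLB hybrids. ENO1, PFKL and PFKFB3 did not pass. SLC2A3 lost its call without PD-1/CD2 replicate 3 or plain DSLB replicate 1 or 2, and EGLN3 without PD-1/CD2 replicate 1 or plain DSLB replicate 3.

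Promoter windows of RefSeq (GRCh38.p14, 250 bases before to 50 after each start) were searched for the core of the hypoxia response element, ACGTG or GCGTG, on both strands. It was found in 22 of the 29 hypoxia genes with a window (75.9%), in 62.1% of the windows of all genes tested and in 48.4% of all windows. The short core is common, and the list's share stands beside that background as a description. ALDOC held 5 matches, PFKFB4 and ENO2 1 each and PDK1 none. The windows of the 2 members with the largest changes are printed with the matches in capitals, which may lie on either strand.
ALDOC (chr17:28576846-28577145, minus strand): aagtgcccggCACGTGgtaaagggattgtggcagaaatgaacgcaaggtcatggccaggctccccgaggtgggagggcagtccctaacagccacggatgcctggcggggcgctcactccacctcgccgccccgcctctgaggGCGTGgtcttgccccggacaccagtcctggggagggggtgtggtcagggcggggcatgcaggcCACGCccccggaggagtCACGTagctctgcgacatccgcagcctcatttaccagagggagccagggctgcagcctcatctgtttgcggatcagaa
PFKFB4 (chr3:48556754-48557053, minus strand): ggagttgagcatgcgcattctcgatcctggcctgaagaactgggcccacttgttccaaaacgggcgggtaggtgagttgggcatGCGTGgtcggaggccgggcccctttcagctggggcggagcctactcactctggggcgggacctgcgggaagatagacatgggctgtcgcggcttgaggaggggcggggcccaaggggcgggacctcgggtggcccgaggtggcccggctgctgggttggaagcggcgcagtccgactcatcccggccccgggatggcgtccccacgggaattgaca

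Interferon-stimulated genes also rose. Interferons act through transcription factors that include STAT2 and IRF9, which bind the interferon-stimulated response element, and their targets include antiviral effectors and the antigen presentation machinery. Of 29 interferon genes tested, 20 rose and 2 fell (the RNA sensor OAS3 and the nucleotide hydrolase SAMHD1), with a median log2 fold change of 0.58. BST2 (tetherin, which holds budding viruses at the membrane; chr19:17402939-17405630) was measured at 18.8, 20.9 and 18.2 CPM in PD-1/CD2 hybrids, against 9.06, 7.87 and 6.83 CPM in plain DSLB hybrids. It was 2.43-fold higher (log2 1.28 ± 0.16 SE, adjusted p = 1.58e-06). IFIT2, an antiviral RNA-binding protein gene, was measured at 35.1, 28.9 and 29.2 CPM in PD-1/CD2 hybrids, against 17.4, 17.7 and 17.0 CPM in plain DSLB hybrids (1.79-fold, adjusted p = 3.7e-07). IFIT1 rose by 0.80, OASL by 0.79, GBP2 by 0.83, MX1 by 0.80 and XAF1 by 0.96 on the log2 scale. Of the upstream genes, STAT2 (log2 fold change −0.02) did not pass, while IRF9 (0.33), IRF7 (0.48) and IRF1 (0.31) rose. Leaving out 1 library at a time left 15 to 20 genes higher. OAS3 lost its call without PD-1/CD2 replicate 2 or 3 or plain DSLB replicate 1 or 2, and IRF9 without PD-1/CD2 replicate 2 or plain DSLB replicate 3. In the fit with gene length removed 18 genes rose, and OAS3 (−0.02), SAMHD1 (−0.11) and IRF9 (0.20) did not pass.

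The core of the interferon-stimulated response element, GAAA followed by any 2 bases and GAAA, was searched on both strands in the same windows. It lay in 13 of the 21 interferon genes with a window (61.9%), in 2.87% of the windows of all genes tested and in 3.65% of all windows. The windows of BST2 and IFIT1 are printed because both genes rose and each held 2 matches, shown in capitals. BST2 carries them on the printed strand, where they overlap, and IFIT1 on the opposite strand. IFIT2 and OASL had no window in the table used.
BST2 (chr19:17405581-17405880, minus strand): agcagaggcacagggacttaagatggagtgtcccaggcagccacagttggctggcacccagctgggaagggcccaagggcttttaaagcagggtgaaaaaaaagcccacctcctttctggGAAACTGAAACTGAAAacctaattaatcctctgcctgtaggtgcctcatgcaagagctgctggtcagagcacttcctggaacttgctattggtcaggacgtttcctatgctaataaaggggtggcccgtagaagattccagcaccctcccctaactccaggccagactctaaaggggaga
IFIT1 (chr10:89392373-89392672, plus strand): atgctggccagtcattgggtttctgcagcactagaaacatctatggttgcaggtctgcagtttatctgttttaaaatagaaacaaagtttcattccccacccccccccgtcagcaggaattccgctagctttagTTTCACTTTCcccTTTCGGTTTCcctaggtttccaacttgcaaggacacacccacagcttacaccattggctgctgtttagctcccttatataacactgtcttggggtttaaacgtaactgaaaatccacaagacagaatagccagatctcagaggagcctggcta

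The MHC class I pathway, which shows peptides to CD8+ T cells, rose in 10 of 18 genes, with a median of 0.39. No gene of it fell with edgeR, DESeq2 or limma-voom, and 12 had an unadjusted p under 0.05 in either direction. The heavy chain gene HLA-B was measured at 125, 136 and 129 CPM in PD-1/CD2 hybrids, against 79.5, 69.8 and 66.8 CPM in plain DSLB hybrids (1.80-fold, adjusted p = 3.05e-09). The light chain gene B2M was measured at 593, 637 and 608 CPM in PD-1/CD2 hybrids, against 424, 417 and 390 CPM in plain DSLB hybrids (1.49-fold, adjusted p = 1.37e-06). HLA-C rose by 0.68, HLA-E by 0.38 and the immunoproteasome subunit PSMB8 by 0.63 on the log2 scale. The heavy and light chain genes thus rose together. The peptide transporter genes TAP1 (0.16) and TAP2 (0.09), the loading chaperones TAPBP (0.07), CALR (0.00) and CANX (0.00) and the class I transactivator NLRC5 (0.09) did not pass. A total of 12 of the 18 rose with gene length removed, TAP1 (0.24) and TAPBP (0.19) among them, and TAP1 also passed without plain DSLB replicate 1. HLA genes are near-identical in parts, and reads may be split among them.

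Proliferation genes fell. Of 32 genes of replication and mitosis tested, 26 fell and none rose with edgeR, DESeq2 or limma-voom (29 at an unadjusted p under 0.05 in either direction), with a median log2 fold change of −0.48. MKI67, the proliferation marker Ki-67, was measured at 95.7, 60.9 and 83.1 CPM in PD-1/CD2 hybrids, against 224, 178 and 201 CPM in plain DSLB hybrids (2.52-fold lower, adjusted p = 1.81e-05). E2F2, a transcription factor of S phase entry, was measured at 2.56, 2.96 and 2.95 CPM in PD-1/CD2 hybrids, against 6.12, 5.79 and 6.48 CPM in plain DSLB hybrids (2.17-fold lower, adjusted p = 7.64e-09). TOP2A, which untangles replicated DNA, was measured at 148, 132 and 155 CPM in PD-1/CD2 hybrids, against 262, 235 and 252 CPM in plain DSLB hybrids (1.73-fold lower, adjusted p = 1.41e-07). Every PD-1/CD2 library was below every plain DSLB library in these 3 genes. They were named with their p or their values known, so that separation is a description only. The replication licensing genes MCM4 (log2 −0.66), MCM2 (−0.62) and CDC6 (−0.75), the S phase factor E2F1 (−0.79) and the mitotic genes CENPF (−0.88) and PLK1 (−0.65) fell as well. CCND1 (−0.10), CDK1 (−0.19), PCNA (−0.19), CCNB2 (−0.22), AURKB (−0.23) and MCM5 (0.02) did not pass. CCND1 passed without PD-1/CD2 replicate 3. With gene length removed, 30 of the 32 fell, CDK1, PCNA, CCNB2 and AURKB among them.

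Cell adhesion and matrix genes changed in both directions, with the junction genes lower. Of 32 integrins, cadherins and adhesion linkers tested, 17 fell and 2 rose, with a median of −0.22. CDH3 (P-cadherin, a cell-cell adhesion receptor; chr16:68636189-68727468) was measured at 47.5, 48.2 and 52.5 CPM in PD-1/CD2 hybrids, against 128, 105 and 107 CPM in plain DSLB hybrids (2.29-fold lower, log2 −1.20 ± 0.06 SE, adjusted p = 1.57e-13). DSP, which anchors keratin at desmosomes, was measured at 128, 85.2 and 98.8 CPM in PD-1/CD2 hybrids, against 232, 214 and 212 CPM in plain DSLB hybrids (2.11-fold lower, adjusted p = 2.04e-07). The desmosomal PKP2 (log2 −0.99), E-cadherin CDH1 (−0.64), the actin linkers VCL (−0.46) and TLN1 (−0.41) and the integrin genes ITGA2 (−0.49), ITGA6 (−0.37), ITGB3 (−0.74) and ITGB4 (−0.33) fell. ITGB1 (0.29) and PXN (0.19) rose, and ITGB1 lost its call when any library other than PD-1/CD2 replicate 3 was left out. ITGA2 and ITGB3 lost theirs without PD-1/CD2 replicate 2, and ITGB4 without plain DSLB replicate 1. Many genes of this list are long, and with gene length removed 12 fell and 3 rose, with a median of −0.11. ITGA2 (−0.18), ITGA6 (−0.14) and ITGB4 (−0.18) were among those that no longer passed, while ITGB3 (−0.58) still fell. TLN1 fell less in that fit (−0.16, adjusted p = 0.0497).

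Of 30 genes of the matrix and of the epithelial-mesenchymal state, 13 fell and 10 rose, with a median of −0.12. FN1 (fibronectin; chr2:215360440-215436073) was measured at 22.6, 17.8 and 18.7 CPM in PD-1/CD2 hybrids, against 72.7, 61.9 and 63.4 CPM in plain DSLB hybrids (3.35-fold lower, log2 −1.74 ± 0.12 SE, adjusted p = 2.36e-11). COL1A1 (log2 −0.69), COL5A1 (−0.71), COL4A2 (−0.57), LAMB3 (−1.01) and LAMC1 (−0.50), chains of collagens and laminins, fell, while the laminin chain genes LAMA5 (−0.22) and LAMB1 (0.19) did not pass. SPARC (0.69), TIMP1 (0.45), the keratins KRT19 (0.79), KRT18 (0.49) and KRT8 (0.36) and vimentin VIM (0.40) rose. SNAI1, ZEB1 and EPCAM did not pass. In the fit with gene length removed 12 of the 30 fell and 11 rose, with a median of −0.05, and LAMB1 rose (0.34, adjusted p = 0.000269). Of 22 TGF-beta and YAP targets, 11 fell and 2 rose, among them the receptor kinase gene AXL (0.31), which lost its call without PD-1/CD2 replicate 1, with a median of −0.22. The YAP targets CCN2 (−0.88), CCN1 (−0.55) and AMOTL2 (−0.70), the YAP partner TEAD1 (−0.56) and the TGF-beta family target ID3 (−0.96) fell. With gene length removed, 8 fell and 5 rose, with a median of −0.10.

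**Figure D2:**
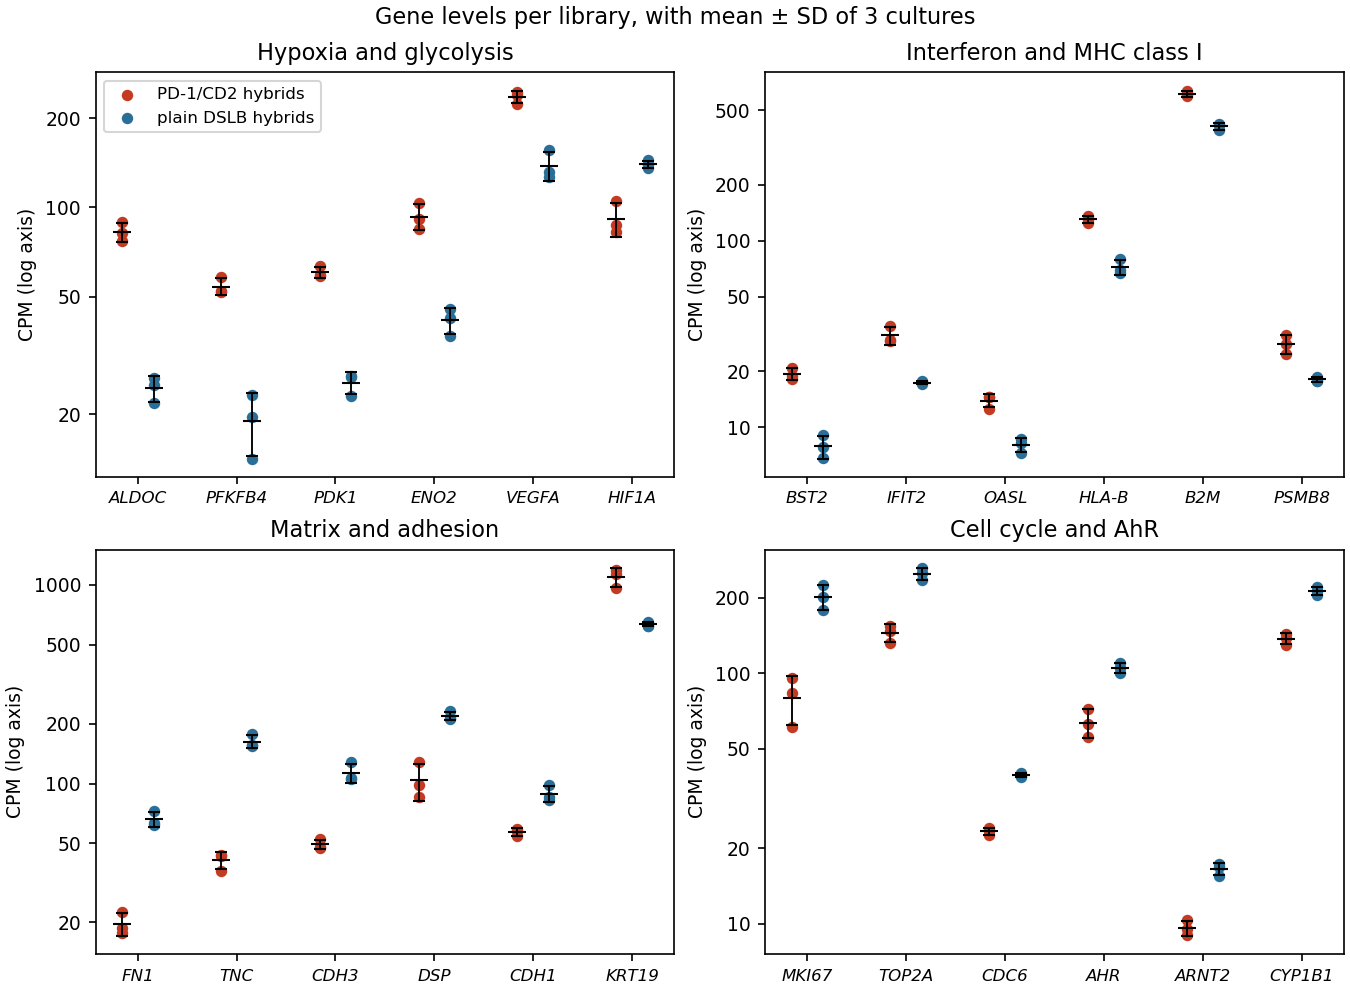
CPM on a log axis in each of the 3 PD-1/CD2 libraries (red, left of each pair) and 3 plain DSLB libraries (blue, right) for 24 genes in 4 panels, points being libraries and bars the mean ± SD. ALDOC (76.9 to 89.1 against 21.8 to 26.5 CPM) and TNC (36.4 to 43.6 against 154 to 177 CPM) lie far apart, in opposite directions.

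The aryl hydrocarbon receptor (AhR) is a ligand-activated transcription factor that pairs with ARNT and drives cytochrome genes. Of 15 AhR pathway genes tested, 8 fell and none rose with edgeR, DESeq2 or limma-voom, with a median of −0.27. At an unadjusted p under 0.05 there were 8 of the 15, beside 7381 of 18424 over all genes. AHR itself was measured at 72.1, 62.5 and 55.7 CPM in PD-1/CD2 hybrids, against 105, 110 and 100 CPM in plain DSLB hybrids (1.66-fold lower, adjusted p = 6.64e-07). Its target CYP1B1 was measured at 144, 130 and 138 CPM in PD-1/CD2 hybrids, against 221, 213 and 206 CPM in plain DSLB hybrids (log2 −0.64, adjusted p = 3.22e-08). ARNT2, a relative of ARNT, was measured at 10.3, 9.0 and 9.5 CPM in PD-1/CD2 hybrids, against 16.8, 15.5 and 17.3 CPM in plain DSLB hybrids (1.72-fold lower, adjusted p = 2.37e-07). These 3 genes have the list's smallest p values, and their lack of overlap between groups is given as a description only. ARNT fell less (log2 −0.27), AHRR (−0.08), TIPARP (−0.14) and NQO1 (0.13) did not pass, and the target ALDH3A1 fell by 3.35 on the log2 scale at a low level. Without PD-1/CD2 replicate 2, 5 of the 15 fell and ARNT did not pass, and 1 gene rose without PD-1/CD2 replicate 1. With gene length removed 6 of the 15 fell, with a median of −0.18, AHR (−0.48), CYP1B1 (−0.42) and ARNT2 (−0.52) among them, while the coactivator NCOA1 and the chaperone HSP90AA1 no longer passed.

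Of 22 MAPK, PKA and PKC kinases, 2 rose (MAPK3 and MAP2K1) and 5 fell, with a median of −0.13. Over all genes tested 14.1% rose and 15.4% fell, and counts this small are given as a description. PRKCA, protein kinase C alpha, was measured at 71.6, 55.7 and 56.9 CPM in PD-1/CD2 hybrids, against 84.5, 84.2 and 89.3 CPM in plain DSLB hybrids (log2 −0.49, adjusted p = 0.000276). PRKACA (−0.17, adjusted p = 0.0796) did not pass. The number of kinases that fell was 2 without PD-1/CD2 replicate 2 or 3 or without plain DSLB replicate 2 or 3, 3 without plain DSLB replicate 1, and 10 without the 4 libraries that stood apart. MAPK3 lost its call without PD-1/CD2 replicate 2 or any plain DSLB replicate, and MAP2K1 without PD-1/CD2 replicate 2 or plain DSLB replicate 1. The median of the kinases with gene length removed was −0.02, PRKCA fell less (−0.18, adjusted p = 0.0124), PRKACA fell (−0.20, adjusted p = 0.0437) and MAPK3 did not pass (adjusted p = 0.309). Of 22 MAPK immediate early and feedback genes, 3 rose (JUNB, JUND and IER3) and 5 fell, among them SPRY4 (−0.53) and ETV5 (−0.39). Without PD-1/CD2 replicate 3 or plain DSLB replicate 1, 3 of these fell, and IER3 lost its call without PD-1/CD2 replicate 2. Of the same 22, 6 rose and 5 fell with gene length removed. Of 24 apoptosis genes, 4 rose and 2 fell (1 without plain DSLB replicate 1 or 3), with a median of 0.01, and BCL2L1, MCL1, BAX and BAK1 did not pass. These counts too are only a description beside the 14.1% of all genes that rose and the 15.4% that fell.

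The stress responses divided. Of 30 genes of the unfolded protein and ATF4 responses, 14 rose and 3 fell, with a median of 0.18, and those that rose included targets of ATF4, the transcription factor that answers amino acid shortage and other stresses. DDIT3 (CHOP) was measured at 46.5, 57.9 and 54.7 CPM in PD-1/CD2 hybrids, against 30.6, 22.6 and 25.8 CPM in plain DSLB hybrids (2.02-fold, adjusted p = 1.21e-07). VLDLR, a lipoprotein receptor induced by ATF4, was measured at 7.43, 6.51 and 5.9 CPM in PD-1/CD2 hybrids, against 2.94, 1.97 and 3.16 CPM in plain DSLB hybrids (2.48-fold, adjusted p = 9.83e-08). ATF3 (0.93), CHAC1 (0.95), DDIT4 (0.91), TRIB3 (0.77), ASNS (0.62), PSAT1 (0.66) and PHGDH (0.63) rose as well. The endoplasmic reticulum chaperone genes HSPA5 (0.11) and HSP90B1 (0.05) and XBP1 (0.00), a transcription factor of the unfolded protein response, did not pass, and HYOU1 (−0.42), MANF (−0.28) and PDIA4 (−0.22) fell. In the fit with gene length removed 18 of the 30 rose and 4 fell, with a median of 0.29, HSPA5 rose (0.29, adjusted p = 0.0194) and PDIA4 did not pass, which it also did not without plain DSLB replicate 1.

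HMOX1, which degrades haem, was measured at 133, 151 and 129 CPM in PD-1/CD2 hybrids, against 71.8, 43.4 and 65.0 CPM in plain DSLB hybrids (2.29-fold, adjusted p = 2.37e-07). It led 6 of 17 NRF2 and metallothionein genes that rose, with none lower with edgeR, DESeq2 or limma-voom. At an unadjusted p under 0.05 there were 7 of the 17, near the share over all genes (7381 of 18424). The classical NRF2 target NQO1 (0.13) and the metallothioneins MT2A (0.10), MT1E (0.38) and MT1X (0.10) did not pass. Of 17 heat shock chaperones, 8 fell and 1 rose (HSPB1, 0.29, adjusted p = 0.0443), with a median of −0.13. HSPB1 lost its call with gene length removed (0.13, adjusted p = 0.254), with a replicate block (adjusted p = 0.0516), with limma-voom, and without any 1 library other than PD-1/CD2 replicate 1. HSPH1 was measured at 171, 171 and 181 CPM in PD-1/CD2 hybrids, against 292, 294 and 301 CPM in plain DSLB hybrids (1.70-fold lower, adjusted p = 9.86e-10). HSPA8 (−0.57) and DNAJA1 (−0.32) fell, and HSPD1 (−0.01, adjusted p = 0.903) did not pass. Without plain DSLB replicate 3, 5 of the 17 fell, and without PD-1/CD2 replicate 1 the median was −0.05.

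Of 20 secreted immune factors, 5 rose and 4 fell, against 14.1% and 15.4% of all genes, with a median of 0.02. IL18 (0.55), IL11 (0.62), VEGFA, the lectin LGALS1 (0.51) and MIF (0.40) rose. The neutrophil chemokines CXCL1 (−0.46), CXCL5 (−1.67) and CXCL8 (−0.78) and the ectonucleotidase gene NT5E (−0.27) fell, but 2 genes fell without PD-1/CD2 replicate 2 and 1 without plain DSLB replicate 1. CXCL8 lost its call in both cases and without PD-1/CD2 replicate 1, CXCL1 without plain DSLB replicate 1, NT5E without any 1 library other than PD-1/CD2 replicate 1, and MIF without PD-1/CD2 replicate 2 or 3 or plain DSLB replicate 1 or 3. The median was 0.14 with gene length removed, where MIF and NT5E did not pass, and without PD-1/CD2 replicate 1 the median was −0.12. The monocyte chemokine gene CCL2 was measured at 8.9, 8.91 and 7.53 CPM in PD-1/CD2 hybrids, against 8.53, 7.5 and 8.85 CPM in plain DSLB hybrids (log2 fold change 0.03, adjusted p = 0.886). Its groups overlapped. CCL5, a T cell chemokine that NF-kB and interferon factors induce, was measured at 5.16, 7.09 and 6.68 CPM in PD-1/CD2 hybrids, against 2.28, 2.05 and 2.14 CPM in plain DSLB hybrids (2.93-fold, adjusted p = 3.47e-07). Of 18 NF-kB subunits and targets, 6 rose, among them ICAM1 (0.46), TRAF1 (0.45) and TNFAIP2 (0.36), and 3 fell (REL, BIRC3 and NFKB1), with a median of 0.10. The median was 0.04 with gene length removed, where REL (−0.59) fell and BIRC3 (−0.12) and NFKB1 (−0.11) did not pass. NFKBIA (0.18) and TNFAIP3 (−0.11) did not pass.

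Of 32 genes of cholesterol and fatty acid synthesis, 11 rose and 3 fell, with a median of 0.14. The stearoyl-CoA desaturase gene SCD was measured at 7070, 5560 and 5630 CPM in PD-1/CD2 hybrids, against 4110, 3950 and 4360 CPM in plain DSLB hybrids (log2 0.56, adjusted p = 0.00177). INSIG1 (0.47), STARD4 (0.46), CYP51A1 (0.40) and SREBF1 (0.36) rose, while FASN (−0.12) did not pass. Without PD-1/CD2 replicate 3 or plain DSLB replicate 1, 1 gene fell. Of 18 genes of lipid storage and lipid response, 3 rose and 4 fell, against 14.1% and 15.4% of all genes. Among them ANGPTL4 (1.27) and the droplet coat gene PLIN2 (0.30) rose and PDK4 (−0.63) fell. PLIN2 lost its call without PD-1/CD2 replicate 2 or plain DSLB replicate 2. The number that rose was 5 without PD-1/CD2 replicate 1 and 1 without plain DSLB replicate 2, and 2 fell without PD-1/CD2 replicate 2 or 3 or any plain DSLB replicate.

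**Figure D3:**
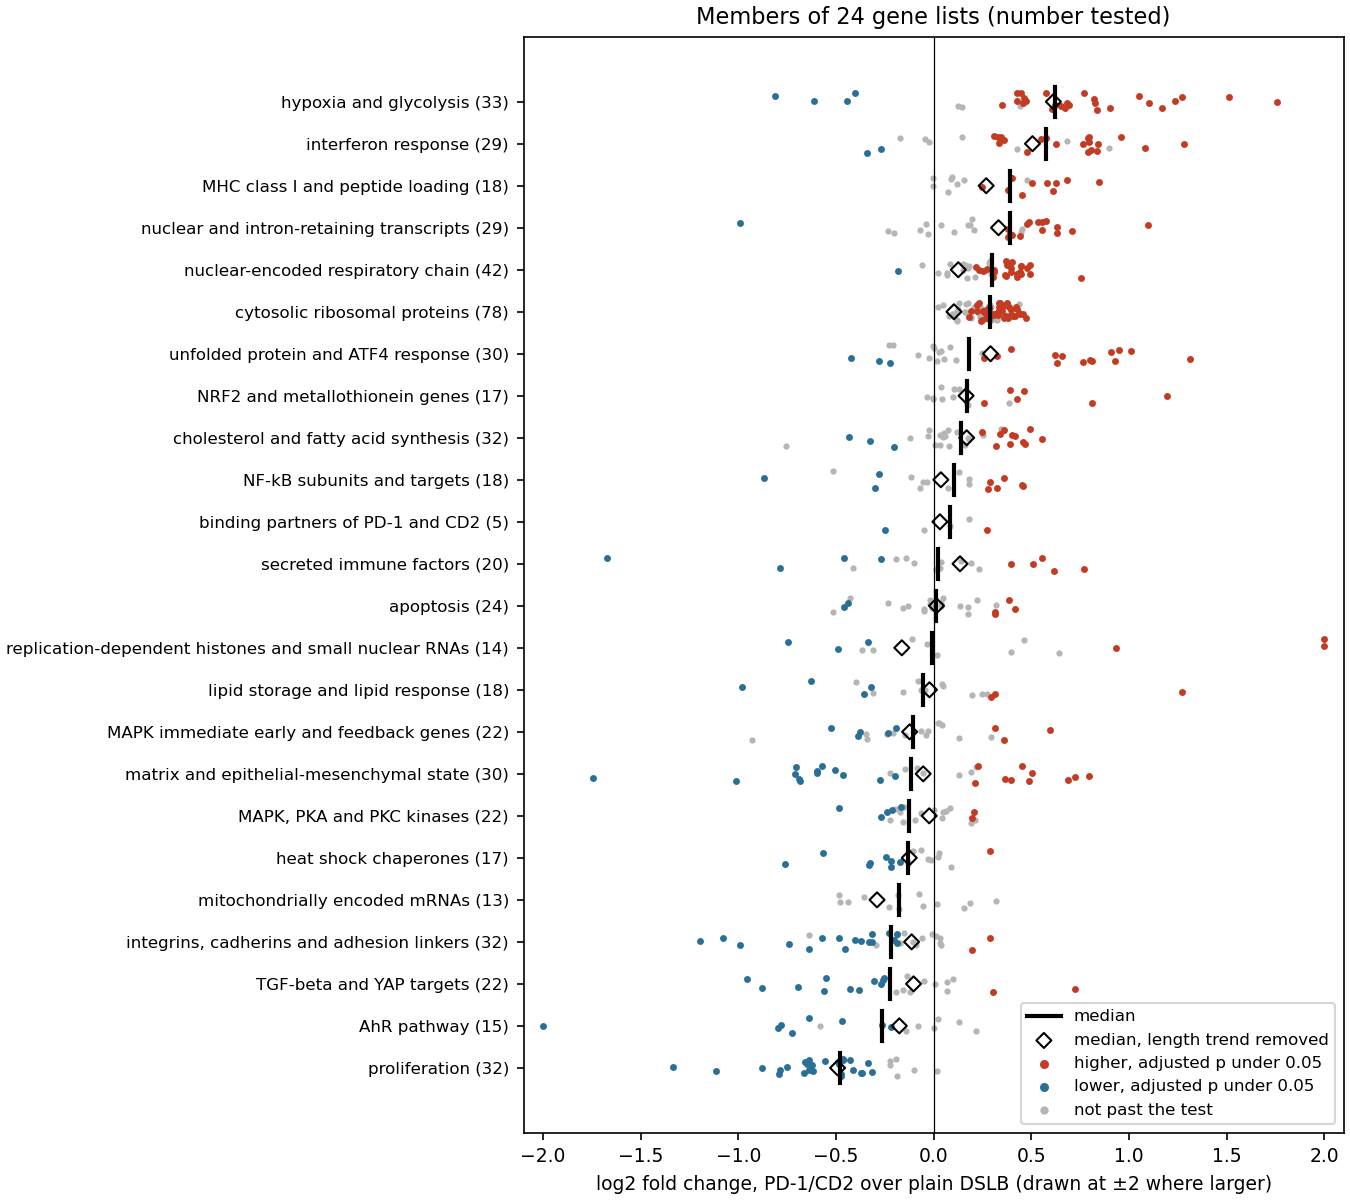
Log2 fold change of PD-1/CD2 over plain DSLB hybrids (horizontal axis, drawn at the edge where beyond 2) for the tested genes of 24 lists, red where a gene rose, blue where it fell and grey where it did not pass, with bars for list medians and diamonds for medians with gene length removed. Hypoxia and glycolysis (26 of 33 higher) and the interferon response (20 of 29 higher) stand at one end and proliferation (26 of 32 lower) at the other, against 14.1% of all genes higher and 15.4% lower.

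Short transcripts were more often higher and long transcripts more often lower. When the genes tested were divided into 10 bins of equal size by effective length, the median log2 fold change was 0.25 in the bin of the shortest (258 higher, 38 lower) and −0.24 in the longest (72 higher, 800 lower), and each bin in between was lower than the one before it. The size differed between libraries. Relative to the mean of the plain DSLB libraries, the shortest and longest bins had medians of 0.03 and −0.10 in PD-1/CD2 replicate 1, 0.17 and −0.36 in replicate 2, and 0.20 and −0.25 in replicate 3. Against PD-1 hybrids the PD-1/CD2 medians were 0.07 in the shortest and −0.09 in the longest bin. Between plain DSLB hybrids and DSLB-free tumoroids the bins ran between −0.02 and 0.02. Once a smooth length trend was removed from each library, 2647 genes were called higher (14.4%) and 2192 lower (11.9%). Of the 5450 calls, 3624 were kept in the same direction and 102 had the opposite sign. What gave rise to the trend was not tested.

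**Figure D4:**
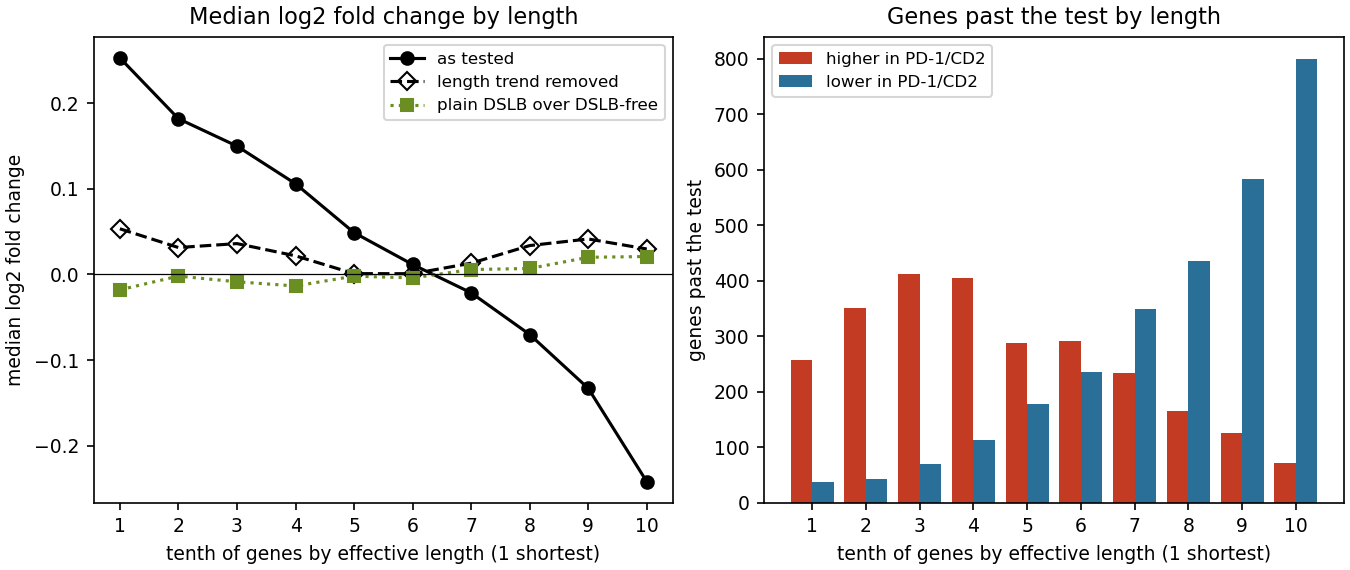
Median log2 fold change per bin of effective transcript length, shortest at the left, for PD-1/CD2 over plain DSLB hybrids before and after the length trend was removed and for plain DSLB over DSLB-free cultures. The bars count the genes that rose (red) or fell (blue) in each bin, and the first line runs between 0.25 in the shortest and −0.24 in the longest bin while the other lines stay between −0.02 and 0.05.

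Many ribosomal protein and respiratory chain transcripts, which are mostly short, rose. Of 78 cytosolic ribosomal protein genes, 45 rose and none fell with edgeR, DESeq2 or limma-voom (56 at an unadjusted p under 0.05 in either direction), with a median of 0.29, and of 42 nuclear-encoded respiratory chain genes, 25 rose and 1 fell (NDUFS1, lost without PD-1/CD2 replicate 2 or 3 or plain DSLB replicate 1 and with gene length removed), with a median of 0.30. With gene length removed, 6 of the 78 and 11 of the 42 rose, with medians of 0.10 and 0.13. The counts also turned on single libraries. The ribosomal count was 10 without PD-1/CD2 replicate 2, 16 without plain DSLB replicate 1 and 29 without plain DSLB replicate 3. The respiratory chain count was 12 without PD-1/CD2 replicate 2, 14 without PD-1/CD2 replicate 3 and 13, 15 and 13 without plain DSLB replicates 1, 2 and 3. ATP5F1C, a subunit of ATP synthase, was measured at 89.0, 106 and 95.1 CPM in PD-1/CD2 hybrids, against 68.7, 68.9 and 68.6 CPM in plain DSLB hybrids (log2 0.50, adjusted p = 3.42e-05). Of the 13 mitochondrially encoded mRNAs none passed with edgeR, DESeq2 or limma-voom, and none had an unadjusted p under 0.05. MT-ND1 was measured at 2800, 2570 and 1590 CPM in PD-1/CD2 hybrids, against 2610, 2350 and 2350 CPM in plain DSLB hybrids, so PD-1/CD2 replicate 3 was low and the groups overlapped.

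Among lncRNA genes fewer fell than rose. Of 2344 lncRNA genes tested, 332 rose and 56 fell, with a median of 0.24, against a median of −0.01 over 14331 protein-coding genes. The share that rose was near the 14.1% of all genes, and the share that fell was below the 15.4% of all genes. The bin of the shortest genes had a median of 0.25, and the lncRNA counts were not repeated with gene length removed. Whether transcript length accounts for the lncRNA median was not tested. Of 29 nuclear and intron-retaining transcripts, 15 rose and 1 fell (KCNQ1OT1, lost without PD-1/CD2 replicate 2 or plain DSLB replicate 1), with a median of 0.39. The nuclear speckle RNA MALAT1 was measured at 1880, 1550 and 2530 CPM in PD-1/CD2 hybrids, against 927, 967 and 895 CPM in plain DSLB hybrids (2.14-fold, adjusted p = 0.000377). The snoRNA host genes ZFAS1 (0.71), GAS5 (0.56), SNHG5 (0.55) and SNHG1 (0.53) rose, and NEAT1 (0.45) and MEG3 (−0.20) did not pass. The list's count was 9 without PD-1/CD2 replicate 3 and 8 without plain DSLB replicate 1. Of 14 replication-dependent histones and small nuclear RNAs, 3 rose and 3 fell, against 14.1% and 15.4% of all genes. With gene length removed 2 rose and 6 fell. SCARNA7, a small Cajal body RNA that guides modification of spliceosomal RNA, was measured at 0.796, 1.02 and 0.852 CPM in PD-1/CD2 hybrids. In plain DSLB hybrids it was at 0.053, 0.132 and 0.0763 CPM (adjusted p = 9.81e-07). Those values are near the floor, and edgeR's filter keeps a gene on the libraries where it is high. No fold over plain DSLB hybrids is therefore given.

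Among genes with the largest changes, several that rose had few counts or near-identical copies. TGFB2-OT1 had 82 to 433 counts per library in PD-1/CD2 hybrids and 0 or 1 in plain DSLB hybrids, and the gene ENSG00000234648 had 122 to 332 counts in PD-1/CD2 hybrids and 0 in all plain DSLB libraries. Both calls were lost without any 1 of the plain DSLB replicates, and that of ENSG00000234648 also without PD-1/CD2 replicate 2. DSLB-free replicate 3 had 1.64 CPM of TGFB2-OT1 and 2.21 CPM of ENSG00000234648, and no fold is given for either. RMRP, NPIPA7 (lost without PD-1/CD2 replicate 3 or plain DSLB replicate 1 or 3), LINC02986, ENSG00000280133, EIF2S2P4 (lost without PD-1/CD2 replicate 3), ENSG00000260566 and MST1L also rose, by 1.51 to 3.77 on the log2 scale, and are RNA genes, pseudogenes, members of copied families or records with no annotation here. The other genes at this end were ALDOC, CCL5 and APLN, all protein-coding. The vascular peptide gene APLN was measured at 2.61, 2.77 and 1.90 CPM in PD-1/CD2 hybrids, against 0.503, 0.948 and 0.648 CPM in plain DSLB hybrids (3.47-fold, adjusted p = 3.3e-07).

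The genes with the largest falls were mostly protein-coding. TNC (tenascin C, a matrix glycoprotein; chr9:115019575-115118207) was measured at 43.6, 36.4 and 43.1 CPM in PD-1/CD2 hybrids, against 177, 154 and 157 CPM in plain DSLB hybrids (3.97-fold lower, adjusted p = 7.95e-12). CP (ceruloplasmin, a copper-carrying ferroxidase) was measured at 29.5, 21.6 and 23.6 CPM in PD-1/CD2 hybrids, against 95.9, 94.1 and 99.3 CPM in plain DSLB hybrids (3.88-fold lower, adjusted p = 1.57e-13). MECOM, a zinc finger transcription factor gene, was measured at 3.84, 2.89 and 3.28 CPM in PD-1/CD2 hybrids, against 13.4, 12.7 and 14.8 CPM in plain DSLB hybrids (4.09-fold lower, adjusted p = 2.36e-11). No overlap between the groups was a condition for naming all 3, so their separation is no further support. The neurotensin gene NTS (5.27-fold lower), the guanine exchange factor gene VAV3 (4.32-fold), the axon guidance gene SEMA5A (4.90-fold), the immunoglobulin superfamily genes IGSF10 (6.0-fold) and IGSF9 (4.23-fold), DIPK1C (5.34-fold) and VIT (4.49-fold) fell at lower levels, with 267 to 358 counts for NTS and 69 to 210 for the others in plain DSLB libraries. ENSG00000258465 and ENSG00000249839 also fell, but had 0 counts in at least 1 PD-1/CD2 library, and both calls were lost without PD-1/CD2 replicate 2 or 3, the first also without PD-1/CD2 replicate 1 or plain DSLB replicate 1 or 3.

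Fewer genes were called in the direct comparison with hybrids of PD-1 alone. The same model called 227 of 18424 genes (1.23%), 135 higher and 92 lower in PD-1/CD2 hybrids, and 82 of the 135 were not protein-coding. With gene length removed 183 of the 227 calls were kept. Both comparisons use the 3 PD-1/CD2 libraries. The count was 5 without PD-1 replicate 1, which was 1 of the 4 libraries that stood apart, and 14 without PD-1 replicate 2. It was 10 without PD-1/CD2 replicate 3 and 541 without PD-1/CD2 replicate 1. Without all 4 libraries that stood apart it was 257, and 133 of the 226 calls still tested were kept. None of the 33 hypoxia genes, 29 interferon genes or 18 MHC class I genes was called with edgeR, DESeq2 or limma-voom, with 11, 6 and 1 at an unadjusted p under 0.05. Over all genes, 2833 of 18424 were at an unadjusted p under 0.05 in this comparison. Of the 29 nuclear and intron-retaining transcripts 4 were higher and none lower, with a median of 0.33 and 19 at an unadjusted p under 0.05. DESeq2 called 12 of them and limma-voom 5. Of the proliferation genes 2 were lower, MCM2 (log2 −0.38, adjusted p = 0.0111) and E2F2 (−0.45, adjusted p = 0.0275), and of the adhesion genes 4 were lower, TLN1 (−0.45, adjusted p = 0.0111), FLNA (−0.43), ZYX (−0.29) and JUP (−0.24). A missed threshold does not show that the groups were alike.

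Against the mean of all 7 other PD-1 groups, 66 genes were called (0.358%), 22 higher and 44 lower, with a median size of 0.26. Some genes that were called against plain DSLB hybrids lay inside the range of the 21 other PD-1 libraries. ALDOC ran from 76.9 to 89.1 CPM in PD-1/CD2 hybrids, from 65.6 to 105 CPM in the other PD-1 libraries and from 20.4 to 28.6 CPM in the 6 plain DSLB and DSLB-free libraries. Without the libraries that stood apart it ran from 65.6 to 105 CPM in the 18 other PD-1 libraries left. HLA-B and CDH3 had the same order with and without those libraries, in that the PD-1/CD2 values lay within those of the other PD-1 libraries and clear of the controls. FN1 ran from 17.8 to 22.6 CPM in PD-1/CD2 hybrids, from 16.1 to 25.5 CPM in the other PD-1 libraries and from 57.7 to 72.7 CPM in those 6 controls. The lowest of these was PD-1/LAG3 replicate 3, and the range of the 18 was 18.9 to 25.5 CPM, so that PD-1/CD2 replicates 2 and 3 (17.8 and 18.7 CPM) lay below it. BST2 (18.2 to 20.9 CPM in PD-1/CD2 hybrids, against 12.1 to 23.6 CPM in the 21 and 12.1 to 19.4 CPM in the 18) and MKI67 (60.9 to 95.7 CPM in PD-1/CD2 hybrids, against 56.3 to 123 CPM in the 21 and 73.2 to 123 CPM in the 18) also lay inside the range only with PD-1/LAG3 replicate 3. All 3 genes were clear of the controls in PD-1/CD2 hybrids.

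The number of genes outside the range of the other PD-1 libraries was not counted. ARNT2 was one of them, with PD-1/CD27 replicate 1 nearest at 10.7 CPM. At 9.0 to 10.3 CPM in PD-1/CD2 hybrids it lay below all 21 other PD-1 libraries (10.7 to 14.2 CPM) and all 6 controls (15.5 to 17.5 CPM), and it was lower than in the other PD-1 groups (log2 −0.37 ± 0.07 SE, adjusted p = 0.0215) and than in PD-1 hybrids (−0.49, adjusted p = 0.0112). The integrin activator TLN1 ran from 372 to 470 CPM in PD-1/CD2 hybrids, from 439 to 620 CPM in the other PD-1 libraries and from 544 to 610 CPM in the controls, and it was lower than the mean of the other PD-1 groups (−0.31, adjusted p = 0.0335). It ran from 445 to 484 CPM in CD27 hybrids and from 439 to 527 CPM in CTLA4 hybrids, which overlapped PD-1/CD2 hybrids and lay below the controls. The actin crosslinker FLNA (−0.29), the junction protein JUP (−0.19), MCM2 (−0.24) and CAD (−0.29), an enzyme of pyrimidine synthesis, were lower too. The snoRNA host gene SNHG3 (0.42), the splicing factor TRA2A (0.29) and the complex I subunit NDUFA5 (0.26) were higher. SCARNA7 was also called higher than the mean of the other PD-1 groups. Its values are near the floor, and edgeR's filter keeps a gene on the libraries where it is high, so no fold is given. Its replicates in CD27, CD40L and CTLA4 hybrids were at 0.557 to 1.08 CPM, beside 0.796 to 1.02 CPM in PD-1/CD2 hybrids. The contrast was therefore not with every other group. The count of 66 was 5 without PD-1/CD2 replicate 3, 206 without PD-1/CD2 replicate 1 and 219 without PD-1/LAG3 replicate 3. It moved by over 1.5 times without any other library of the PD-1 groups except PD-1 replicates 1 and 3. Of the 66 calls, 43 were kept with gene length removed, 9 without PD-1/CD2 replicate 2, 3 without PD-1/CD2 replicate 3 and 1 with sample weights. Single calls of this contrast, ARNT2 and TLN1 among them, are to be read with that limit.

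**Figure D5:**
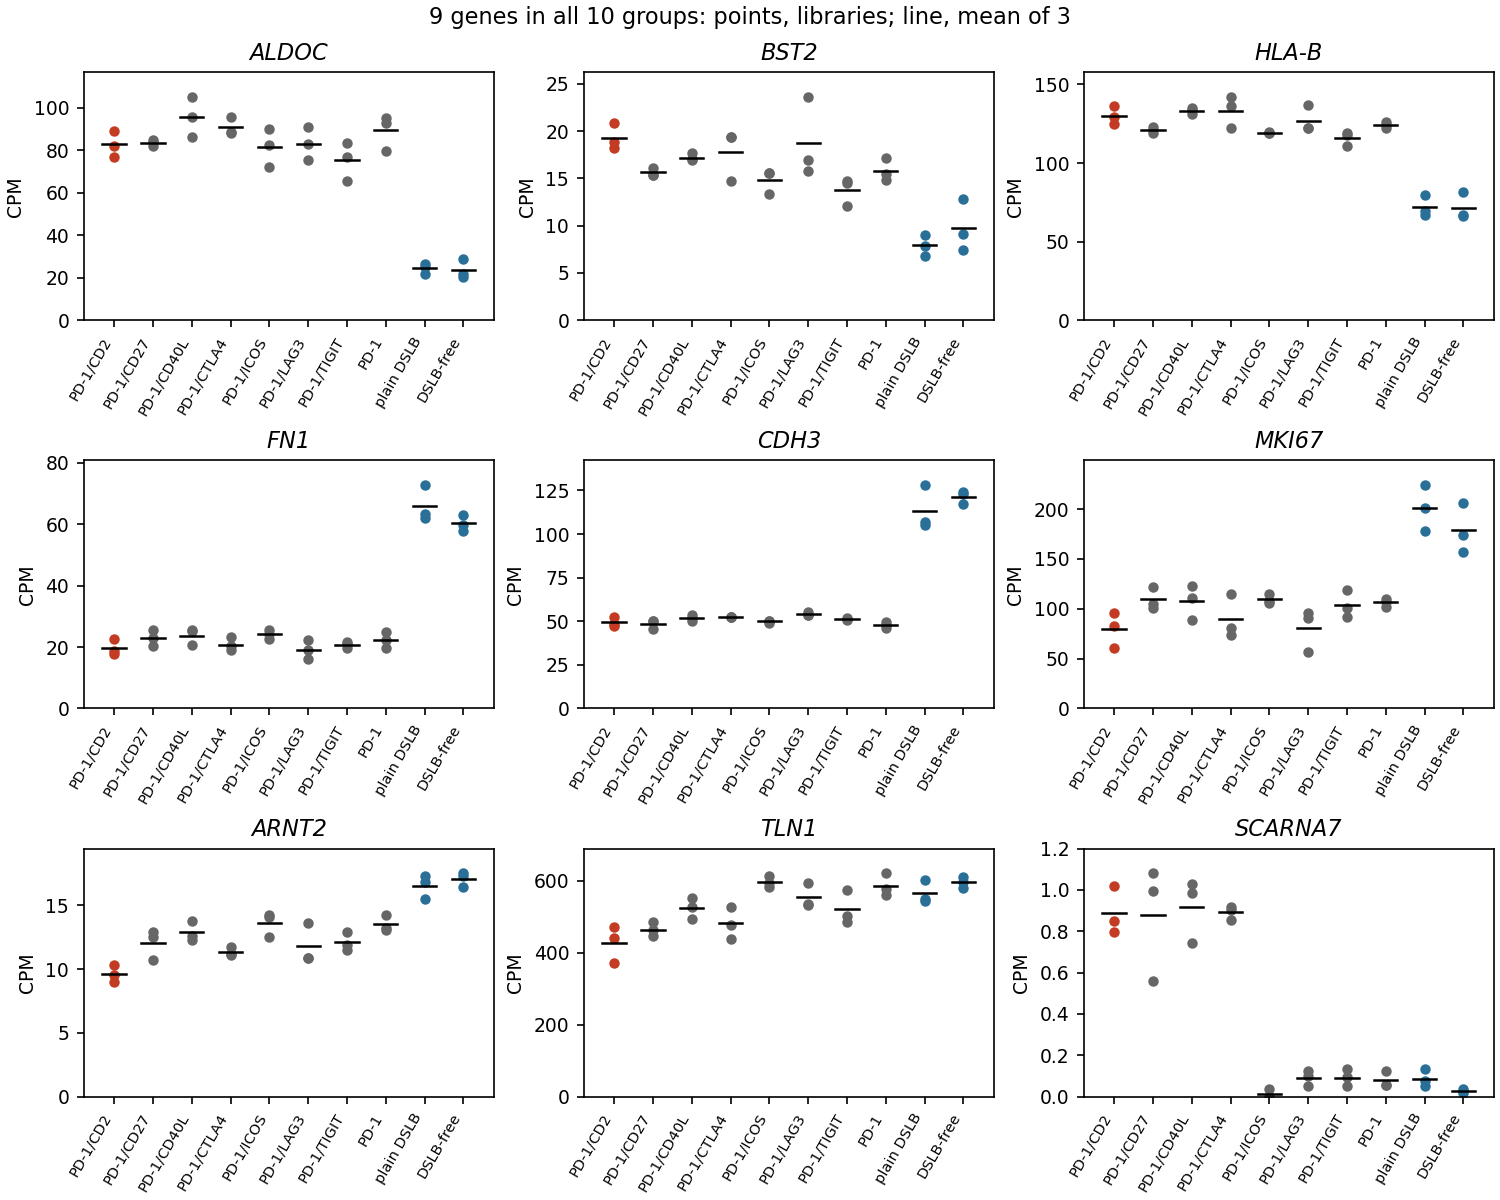
CPM (vertical axis, from 0) of 9 genes in all 30 libraries, with a line at each group mean and with PD-1/CD2 hybrids at the left, then the other PD-1 pairs, PD-1 hybrids, plain DSLB hybrids and DSLB-free tumoroids. For ALDOC, HLA-B and CDH3 the PD-1/CD2 points lie among those of the other PD-1 groups and apart from both controls, while ARNT2, at 9.0 to 10.3 CPM, is lowest in PD-1/CD2 hybrids.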

How the data were processed

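The series holds RNA-seq libraries of 30 PANC-1 cultures, of which the values of the 6 libraries of PD-1/CD2 and plain DSLB hybrids are reported. Groups and replicate numbers came from the sample labels. According to the methods of the study and the processing notes, libraries were directional, and reads were trimmed (Trim Galore 0.3.3, after FastQC 0.11.2), aligned to hg38 with STAR, handled with SAMtools 1.3.1 and counted per gene with RSEM.
The deposited files hold, for each of 60483 gene records, the expected count, which the authors estimated with RSEM by sharing ambiguous reads among genes, the TPM value and the effective length in nt. Neither the annotation release nor the strand option of RSEM was stated, and reads of overlapping or antisense genes and of near-identical copies may therefore be mixed. Of the identifiers, 56321 matched GENCODE v44 (GRCh38), which gave symbols and coordinates. Promoter windows are those of RefSeq (GRCh38.p14).
The expected counts, rounded to the nearest whole number, were fitted with edgeR 4.0.16 (robust quasi-likelihood, TMM factors, 1 mean per group) over all 30 libraries, so that all groups shared 1 estimate of the spread (common biological coefficient of variation 0.0942). After edgeR's filter by group, 18424 genes were tested, and a Benjamini-Hochberg adjusted p under 0.05 was called, with no limit on the fold. Tests were two-sided. CPM values used the TMM-scaled library sizes, and TPM values as deposited were used for cell type markers only. "Rose" and "fell" are used of called genes. The 3 cultures of a group were prepared in parallel, so p-values measure the spread between parallel cultures of 1 cell line.
Alternatives were RLE factors, no filter on low counts or a mean of at least 100, DESeq2 1.42.0, limma-voom (limma 3.58.1) with and without sample weights, fits of the 6 libraries alone, a replicate block, a threshold of 0.1, protein-coding genes only, DSLB-free cultures as control, leaving out each library or the 4 libraries that stood apart, and a spline of log2 effective length (5 degrees of freedom) removed from each library. Protein-coding genes only, the sample weights, the DSLB-free control and leaving out those 4 libraries were chosen after seeing the data. In counts simulated for PD-1/CD2 against plain DSLB hybrids over 18179 genes, edgeR recovered 69 of 100 genes changed by 0.5 and 93 of 100 changed by 1 on the log2 scale, and made 6 false calls. Adding a length trend gave 152 false calls over 18192 genes, and removing it again gave 10. The added trend was the same in all PD-1/CD2 libraries, while the trend in the data differed between them. The 152 therefore does not measure how many calls the trend gave in the data.
The genes named are, among called genes with a mean expected count of at least 50 over the 6 libraries and no overlap in CPM, the 12 with the largest rise and the 12 with the largest fall, up to 4 members of each list with the smallest p, and a set given for the ligands, AhR, kinases, CCL2, TLN1, HSPD1 and MALAT1. Other members named from the lists, and the genes of the direct comparisons, were chosen after their values were seen. Lack of overlap in a gene named by these rules is a description, and the share of such genes among all genes tested is not given. Some genes of the lists, and 1 list, are not reported here. The comparison and the gene lists were chosen with earlier results of these data known. Tables and figures were made in R 4.3.3 and in Python 3.11.15 with pandas 2.3.3, matplotlib 3.10.9 and numpy 2.4.6.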

Additional observations from a re-analysis of the deposited data

How the results depend on the processing

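The 5450 calls between PD-1/CD2 and plain DSLB hybrids stayed within 1.5 times under every alternative, between 3935 and 5813 when 1 library was left out, 5440 with DESeq2, 4057 with edgeR on the 6 libraries alone, 5725 with DSLB-free tumoroids as control and 6642 without the 4 libraries that stood apart. DESeq2 kept 5227 of the calls and the DSLB-free control 4279, with 18 of opposite sign. The comparison with PD-1 hybrids (227 genes) was less stable, with 79 genes among protein-coding genes only, 533 with DESeq2, 354 with gene length removed, 828 with no filter on low counts, 518 at a threshold of 0.1, and 5 to 541 when 1 library was left out. Against the other PD-1 hybrids (66 genes) it was 546 without the 4 libraries that stood apart, 394 with DESeq2, 144 with a mean of at least 100 counts, 486 with no filter, 109 with limma-voom, 2 with sample weights, 204 at a threshold of 0.1, and 5 to 219 when 1 library was left out. The causes were not tested. Of the 129 genes given by the naming rules, 0 to 9 lost the call under any 1 alternative and none changed sign while called. The rules favour large changes and small p values. Other genes named in the text are not in that count, and several lost their calls as given above. The medians of 11 of 25 lists moved by more than the replicate spread with gene length removed, of 10 with DSLB-free tumoroids as control and of 11 without PD-1/CD2 replicate 1, against 2 to 6 without any other 1 of the 6 libraries. Of the 338 list members called, 99 lost the call with gene length removed and 23 to 94 when 1 library was left out. CD274 and PDCD1LG2 were too low at this depth for a difference to be detectable.

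The replicate numbers did not pair the libraries, since the deviations of same-numbered PD-1/CD2 and plain DSLB libraries correlated at 0.000193, 0.0239 and −0.0256, and not every library correlated best with its own number. With a replicate block 5550 genes were called between PD-1/CD2 and plain DSLB hybrids, 261 against PD-1 hybrids and 84 against the other PD-1 hybrids, and 1 of the 129 named genes, CD58, lost its call (adjusted p = 0.0523). Of the 338 list members called, 7 lost the call with the block, CD58 and HSPB1 (adjusted p = 0.0516) being those named in the text, and 10 gained one.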
